A study of Homo sapiens with 6 samples.

Results

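RAB GTPases are the small GTP-binding proteins that give each membrane of the cell its traffic identity, and 61 RAB genes were followed here in a human papillary thyroid carcinoma cell line, TPC-1. They were chosen by name. A member has a probe set whose only symbol in the platform's gene table is RAB, a number and at most 1 letter. That rule excludes effectors and regulators. RAB1C also matched it and was left out as a pseudogene by RefSeq. The 61 members are part of 33616 genes with a singly named probe set, and each is represented by the brightest of its probe sets. There were 6 Affymetrix whole-transcript arrays, 3 from cells given an siRNA against SMAD3 (si-SMAD3) and 3 from cells given a control siRNA (si-Control). Cells of both groups were about 85% confluent, received 25 pmol of siRNA with 4.5 ul of RNAiMAX, and were harvested after 24 h. The experiment was run at 3 separate times, so the replicates repeat 1 cell line and the spread between them is the spread between runs. SMAD3 is a transcription factor that carries TGF-beta and activin signals, and the comparison asks which transcripts depend on it. The labels name neither the siRNA sequences nor any added TGF-beta, and SMAD3 protein was not analysed here.

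A RAB protein cycles between a GTP-bound form, which recruits effectors such as tethers, motors and sorting adaptors, and a GDP-bound form, which the protein GDI keeps soluble in the cytosol. Exchange factors switch it on at its membrane, GTPase-activating proteins switch it off, and the geranylgeranyl anchor that holds it in the membrane is added by RAB geranylgeranyl transferase with the help of the escort proteins CHM and CHML. Because RABs set how fast receptors are taken up, recycled or sent to lysosomes, they bear on how long a TGF-beta receptor can signal, and in thyroid cells they also serve the uptake and breakdown of thyroglobulin.

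The cell markers matched the labelled origin only in part. PAX8, a thyroid lineage factor, was at a mean log2 value of 13.63 and the keratin gene KRT8 at 15.03, while thyroglobulin (TG, 3.56), the TSH receptor (TSHR, 3.38), the iodide transporter (SLC5A5, 3.09), NKX2-1 (3.77), CDH1 (3.11) and EPCAM (3.47) lay below 3.93, the median of all probe sets. Of the markers with a probe set, 4 of 8 thyroid, 4 of 6 epithelial, 3 of 5 immune, 1 of 5 endothelial and 4 of 5 fibroblast genes lay above it. The SMAD3 probe set fell from 14.20, 14.21 and 14.67 on the si-Control arrays to 10.58, 10.03 and 10.27 on the si-SMAD3 arrays, a difference of -4.06 (SE 0.22) with an adjusted p of 0.00045 by limma. It was the 1 gene called among 20674 tested (0.00484%). Both replicate 2 arrays stood apart from the other 4 on the first principal component, at 23.7 in si-Control and 39.6 in si-SMAD3 against -28.2 to -6.24.

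No RAB gene changed past the threshold after SMAD3 knockdown. Of the 61 members, 53 lay above the filter of 3.93 and were tested, 27 with a difference above 0 and 26 below, and the median difference was 0.00 on the log2 scale against 0.02 over all genes tested. By limma's moderated test 0 of 53 had an adjusted p under 0.05, and adjusted p ran from 0.86 to 1.0. The 2 members with an unadjusted p under 0.05, RAB27B and RAB7B, were both higher on the si-SMAD3 arrays. They are 3.77% of those tested, where 5.72% of all genes had such a p, 2.71% higher and 3.01% lower. With the replicate number as a block the RAB count was also 2, and the share of all genes 6.97%. The replicate block, the intensity trend, other scalings and filters, and leaving out single arrays gave 0 called members too.

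The arrays bounded most RAB differences more tightly than a doubling. The 95% interval of the difference reached a median of 0.47 to either side, from 0.38 to 0.96. For 50 of the 53 tested members it lay wholly between -1 and 1 on the log2 scale, that is, within 2-fold either way on the scale of the deposited values. For 6 of them it lay between -0.5 and 0.5. The differences themselves were under 0.5 in size for 51 members. Each interval is for a single gene, without adjustment for the number of genes. Some of the 50 members, such as RAB33A (3.97) and RAB41 (3.98), lay just above the filter of 3.93. There a narrow interval of the signal need not bound the transcript.

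**Figure D1:**
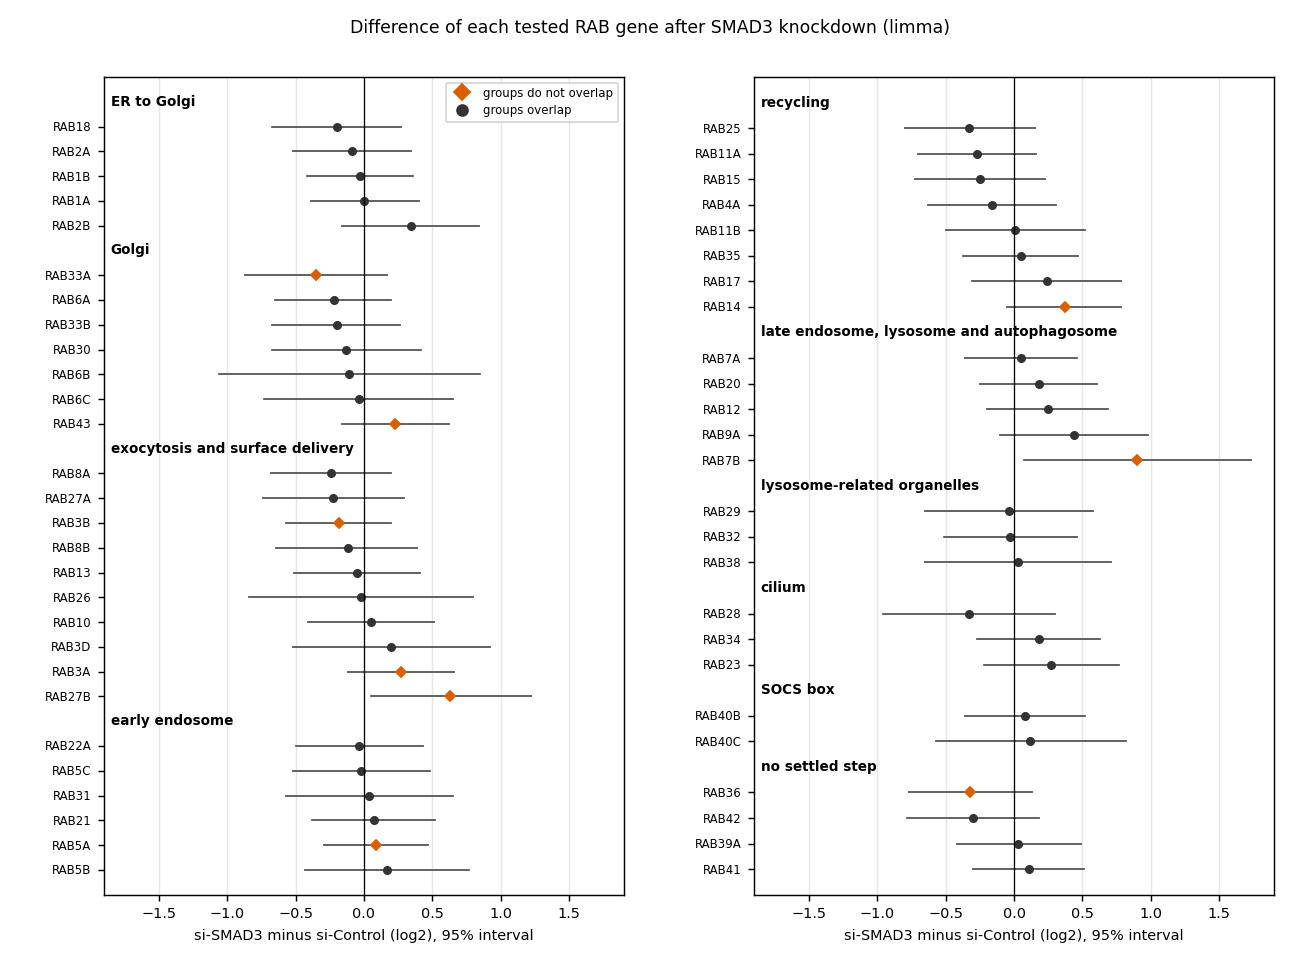
Difference between the si-SMAD3 and si-Control means (log2, horizontal axis) for the 53 RAB genes tested, by trafficking step, with limma's 95% interval as a line. Orange diamonds mark the 9 genes whose groups did not overlap. Only the intervals of RAB27B and RAB7B lay clear of 0.

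Signal on the arrays differed widely among RAB genes. Means over the 6 arrays ran from 3.16 for RAB40A to 18.31 for RAB7A, with a median of 8.26. There were 32 members at or above 8 and 10 at or above 14. A probe set's signal depends on its probes as well as on the transcript, so these values say that a gene's probe set was bright or near the floor and do not rank transcripts against each other.

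**Figure D2:**
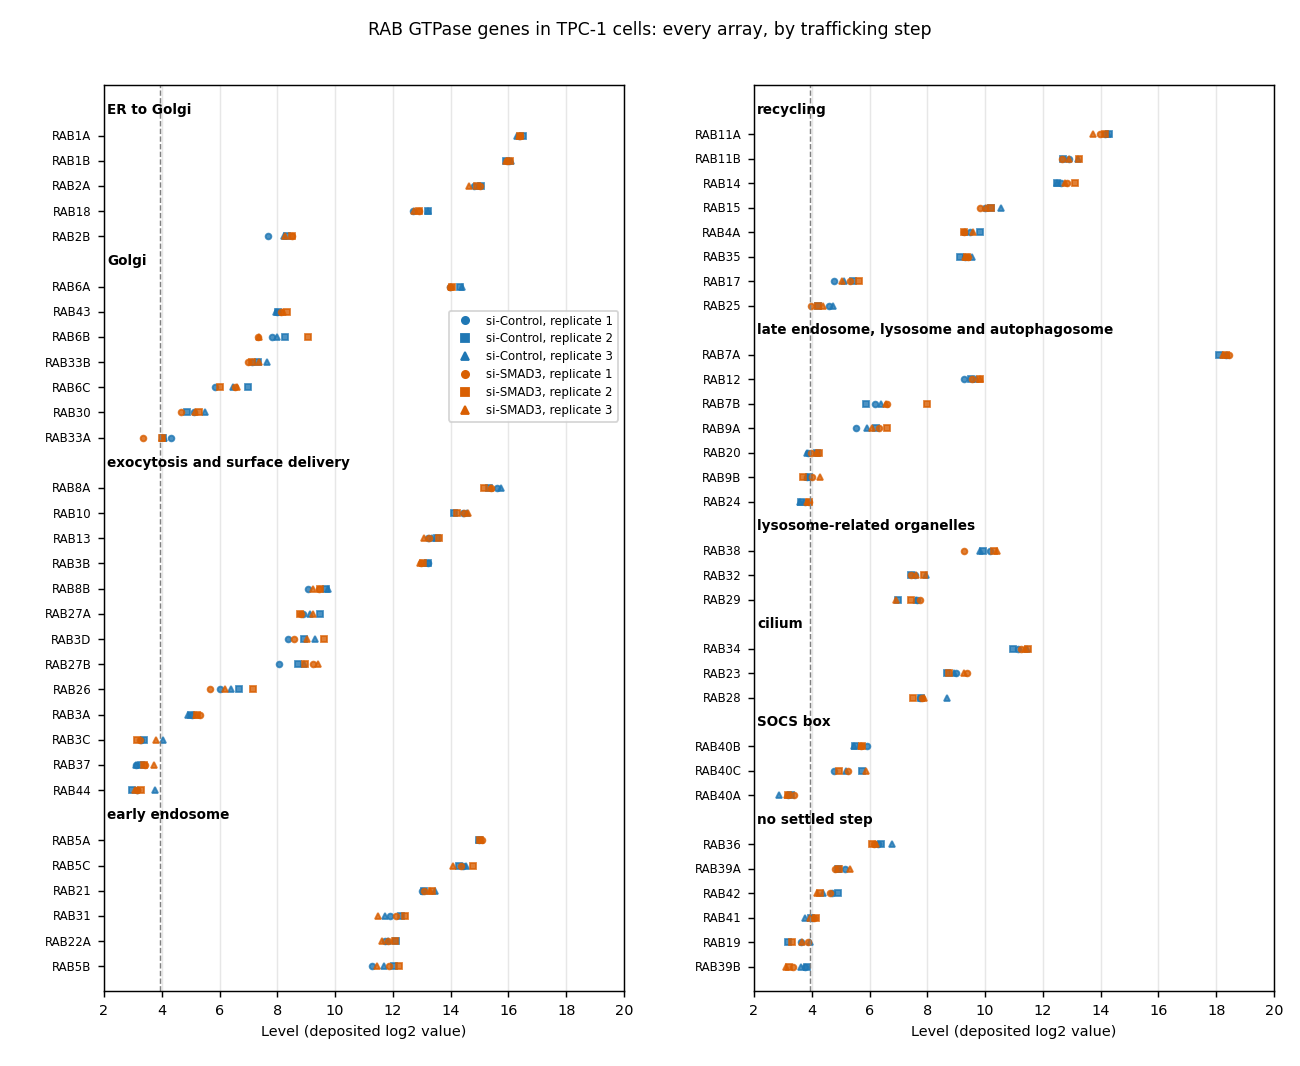
Deposited log2 level (horizontal axis) of each of the 61 RAB genes on each of the 6 arrays, grouped by trafficking step. Blue marks are si-Control, orange marks si-SMAD3, the shape gives the replicate, and the dashed line is the filter of 3.93. Blue and orange marks are intermixed for most genes, and the range within a gene is small beside the range from RAB40A to RAB7A.

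Of the RABs between the endoplasmic reticulum and the Golgi, all but RAB2B were bright, and none was called. RAB1A, which drives COPII vesicles towards the Golgi, was at 16.38, 16.49 and 16.29 on the si-Control arrays and 16.41, 16.39 and 16.37 on the si-SMAD3 arrays. The groups overlapped, and the difference of 0.00 had a 95% interval of -0.39 to 0.40. Its paralog RAB1B was at a mean of 15.98 and differed by -0.03 (SE 0.17). RAB2A, needed for Golgi structure and for cargo returning to the endoplasmic reticulum, was at 14.91 and differed by -0.09 (SE 0.19). Another RAB2A probe set, at a mean of 5.95, differed by -0.47. RAB18, which acts on lipid droplets and the endoplasmic reticulum, was at 12.94 and differed by -0.20 (SE 0.21). The dimmest of the step, RAB2B, was at 7.69, 8.35 and 8.24 on the si-Control arrays and 8.51, 8.51 and 8.28 on the si-SMAD3 arrays. Its groups overlapped through the 2 arrays at 8.35 and 8.28, and the difference was 0.34 (SE 0.22, unadjusted p = 0.16 by limma). Without si-Control replicate 1, the lowest array, it was 0.14. A probe set annotated to RAB1C, a pseudogene by RefSeq and no member, was at a mean of 10.80. Whether it shares probes with RAB1A or RAB1B was not tested.

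Golgi RABs ranged from 3.97 (RAB33A) to 14.12 (RAB6A). RAB6A, which tethers vesicles that return from endosomes to the Golgi, was at 13.98, 14.33 and 14.38 on the si-Control arrays and 13.97, 14.05 and 14.01 on the si-SMAD3 arrays. The groups overlapped because control replicate 1 lay among the knockdown values, and the difference was -0.22 (SE 0.19). RAB43, a Golgi RAB of retrograde traffic, was at 8.0, 8.01 and 7.95 against 8.12, 8.34 and 8.19. Each knockdown array was above each control array, by a mean of 0.23 (SE 0.17, unadjusted p = 0.22 by limma). Another RAB43 probe set near the floor, at a mean of 3.96, differed by -0.12, and the mean of both probe sets by 0.05. RAB33A was just above the filter, at 4.31, 4.03 and 4.09 against 3.36, 4.0 and 4.01, a difference of -0.35 (SE 0.23). Its groups did not overlap, by a narrow margin, and without si-SMAD3 replicate 1, the lowest array, the difference was -0.13. RAB33B, which recruits the autophagy conjugation factor ATG16L1, was at 7.26 and differed by -0.20 (SE 0.21), and RAB30 was at 5.10 and differed by -0.13 (SE 0.24). Of the 7 members, 6 lay below 0 and 1 above, with a median of -0.13. Over all genes tested 47.2% lay below 0.

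RAB6B, the paralog of RAB6A found mainly in neurons, was uneven between experiments. It was at 7.80, 8.28 and 7.99 on the si-Control arrays and 7.33, 9.05 and 7.37 on the si-SMAD3 arrays. Replicate 2 held the highest value in both groups. Within the 3 experiments the difference was -0.47, 0.77 and -0.62. The mean difference of -0.11 had the widest 95% interval of the tested members, -1.06 to 0.85. RAB6C, a copy of the RAB6A coding sequence without introns, was at 6.40 and differed by -0.04 (SE 0.31). Whether its probes also read RAB6A was not tested.

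RABs of the early endosome were uniformly bright and differed little. All 6 had means of 11.76 to 15.01, and their differences lay between -0.04 and 0.17. RAB5A, the GTPase that drives fusion of incoming vesicles with early endosomes, read 14.97 on each of the control arrays and 15.08, 15.03 and 15.06 on the knockdown arrays. These groups did not overlap, yet they were 0.09 apart with an SE of 0.17 in limma's test, which draws a gene's very small spread towards that of other genes. RAB5A had the smallest range over the 6 arrays of all members, 0.11. Its paralog RAB5C, at 14.42, differed by -0.02 (SE 0.22), and RAB5B, at 11.76, by 0.17 (SE 0.27). RAB21, which carries integrins inward, was at 13.21 and differed by 0.07 (SE 0.20). RAB22A, which sorts cargo from early endosomes to recycling, was at 11.87 (difference -0.04, SE 0.20). RAB31, a relative that acts between the Golgi and endosomes, was at 11.99 (difference 0.04, SE 0.27). A further RAB31 probe set, below the filter at a mean of 3.37, differed by -0.29.

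Recycling RABs included bright and dim members and differed in both directions, 4 above 0 and 4 below. RAB14, which moves cargo between early endosomes, the Golgi and the surface, was at 12.63, 12.48 and 12.48 on the si-Control arrays and 12.84, 13.10 and 12.75 on the si-SMAD3 arrays. Its groups did not overlap, and the difference of 0.37 (SE 0.19, 95% interval -0.05 to 0.78) had an unadjusted p of 0.080 by limma. Without si-SMAD3 replicate 2, the highest array, the RAB14 difference was 0.26. RAB11A, the main GTPase of the recycling endosome, was at 14.14, 14.28 and 14.25 against 13.97, 14.16 and 13.73. It overlapped by 1 array and differed by -0.27 (SE 0.19, unadjusted p = 0.19 by limma). The value was -0.16 without si-SMAD3 replicate 3, and -0.11 as the mean with a further RAB11A probe set, which lay below the filter and differed by 0.05. RAB11B, its close paralog, was at 12.93 and differed by 0.01 (SE 0.23). RAB15, which slows transport out of early and recycling endosomes, was at 10.01, 10.22 and 10.54 against 9.82, 10.19 and 10.02, a difference of -0.25 (SE 0.21). Leaving out si-Control replicate 3 gave -0.10, and leaving out si-SMAD3 replicate 1 gave -0.15. RAB4A, which serves the fast return route to the surface, was at 9.46 (difference -0.16, SE 0.21), and RAB35, which acts in a similar fast route, at 9.35 (difference 0.05, SE 0.19).

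RAB25 and RAB17 were the dim members of the step. RAB25, the epithelial relative of RAB11, was at 4.59, 4.23 and 4.73 on the si-Control arrays and 3.96, 4.23 and 4.38 on the si-SMAD3 arrays, little above the filter. The difference was -0.33 (SE 0.21, unadjusted p = 0.16 by limma), -0.21 without si-SMAD3 replicate 1, and the groups overlapped. RAB17, a RAB of epithelial transcytosis, was at 5.22 and differed by 0.24 (SE 0.24). RAB4B was measured only by probe sets with several symbols, at means of 3.47 and 4.05, and is not among the members.

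Late endosomal, lysosomal and autophagosomal RABs all lay above 0, 5 of 5 tested, with a median of 0.25, and none was called. Over all genes tested 47.2% lay below 0. RAB7A, which directs late endosomes and autophagosomes to fuse with lysosomes, was the brightest member, at 18.34, 18.11 and 18.39 on the si-Control arrays and 18.43, 18.34 and 18.23 on the si-SMAD3 arrays. The groups overlapped and the difference of 0.05 had a 95% interval of -0.36 to 0.46. Without si-Control replicate 2 the RAB7A difference was -0.03. Its probe set lay near the ceiling of 19.93 that the deposited values share, and a narrower response of very bright probe sets was not tested. RAB9A, which returns mannose 6-phosphate receptors from late endosomes to the Golgi, was at 5.54, 6.24 and 5.91 against 6.34, 6.59 and 6.08. Knockdown was higher within each experiment, though the groups overlapped, and the difference was 0.44 (SE 0.24, unadjusted p = 0.097 by limma). Without si-Control replicate 1 it was 0.26. RAB12, which steers transferrin receptor to lysosomes, was at 9.28, 9.52 and 9.69 against 9.55, 9.84 and 9.84, a difference of 0.25 (SE 0.20) that was 0.14 without si-Control replicate 1. RAB20, which acts on maturing phagosomes, was near the filter at 4.05 and differed by 0.18 (SE 0.19).

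RAB7B, a distinct GTPase despite its name, which acts between late endosomes and the trans-Golgi network, gave the largest difference of the family. It was at 6.2, 5.87 and 6.38 on the si-Control arrays and 6.59, 7.98 and 6.57 on the si-SMAD3 arrays. All knockdown values were above all control values, but 1 array, si-SMAD3 replicate 2, lay well above the other 5. The means were 6.15 ± 0.26 and 7.05 ± 0.81 (SD, n = 3), and the difference was 0.90 (SE 0.37, 95% interval 0.07 to 1.73). The unadjusted p was 0.037 and the adjusted p 0.86 by limma. Within the 3 experiments the difference was 0.39, 2.11 and 0.19. Without si-SMAD3 replicate 2 it was 0.43.

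Exocytic RABs contained the other member with a low unadjusted p. RAB27B, which docks secretory granules and multivesicular bodies at the plasma membrane, was at 8.06, 8.71 and 8.94 on the si-Control arrays and 9.24, 8.96 and 9.42 on the si-SMAD3 arrays. The groups did not overlap, by a narrow margin between si-Control replicate 3 and si-SMAD3 replicate 2. The means were 8.57 ± 0.46 and 9.21 ± 0.23 (SD, n = 3), a difference of 0.63 (SE 0.26, 95% interval 0.05 to 1.22). The unadjusted p was 0.037 and the adjusted p 0.86 by limma, and an exact 2-sided permutation of the 6 arrays gave 0.1, below which 3 against 3 cannot go. Control replicate 1 was the lowest array, and without it the difference was 0.38. The paralog RAB27A, which acts on the same organelles, was at 9.06 and differed by -0.23 (SE 0.23). Whether the paralogs' differences are unlike was not tested.

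**Figure D3:**
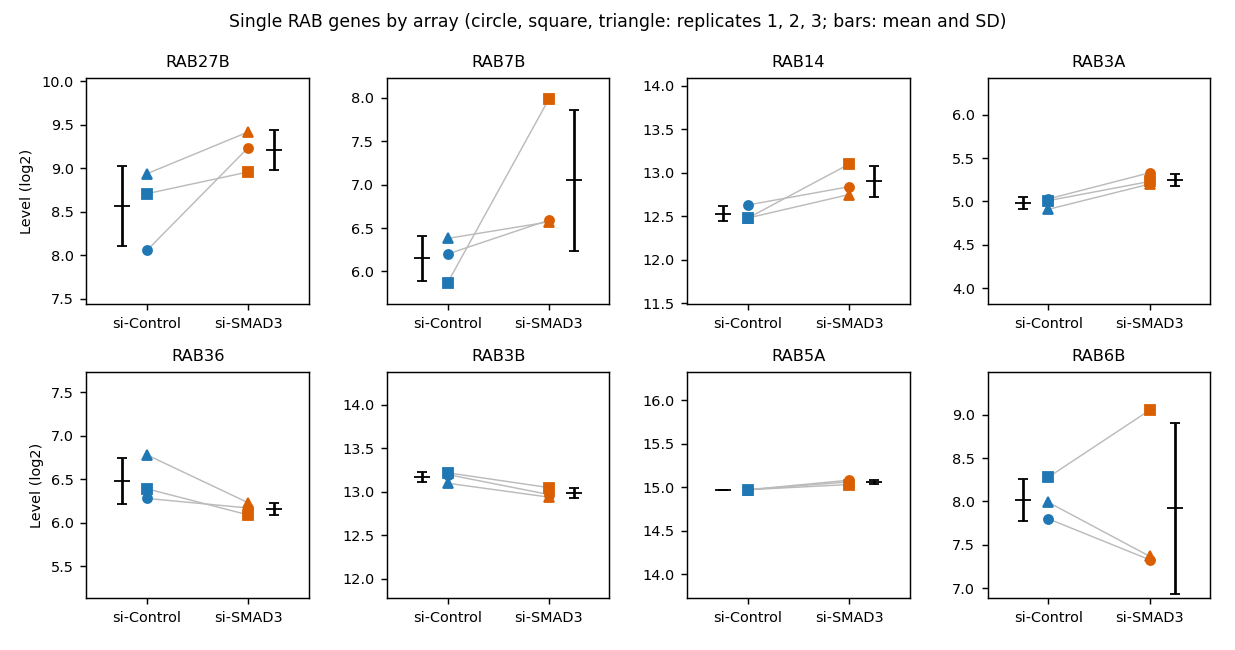
Log2 level (vertical axis, the same span in every panel) of 8 RAB genes on each array, si-Control in blue and si-SMAD3 in orange, with grey lines joining arrays of the same experiment and black bars for the mean and SD of 3 arrays. The si-SMAD3 replicate 2 array is the highest point for RAB7B, RAB14 and RAB6B. For RAB3A, RAB3B and RAB5A the lines are short and slope alike in each experiment.

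The other tested exocytic RABs differed by 0.27 or less. RAB8A, which delivers Golgi and recycling cargo to the surface and to cilia, was at 15.62, 15.33 and 15.73 on the si-Control arrays and 15.41, 15.16 and 15.39 on the si-SMAD3 arrays. Values were lower within each experiment and overlapped across experiments, and the difference was -0.24 (SE 0.19, unadjusted p = 0.24 by limma). RAB8B was at 9.44 and differed by -0.12 (SE 0.23). RAB10, which brings glucose transporter GLUT4 to the surface in fat cells, was at 14.40 (difference 0.05, SE 0.20), and RAB13, a RAB of tight junction traffic, at 13.34 (difference -0.05, SE 0.20). 

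The RAB3 proteins of regulated secretion gave 2 small differences of opposite sign with little spread. RAB3B was bright, at 13.20, 13.22 and 13.10 on the si-Control arrays and 12.97, 13.05 and 12.94 on the si-SMAD3 arrays. Its groups did not overlap and the difference was -0.18 (SE 0.17, unadjusted p = 0.31 by limma). RAB3A, best known from synaptic vesicles, was at 5.03, 5.01 and 4.91 against 5.33, 5.23 and 5.20. That pattern was also free of overlap, and the difference was 0.27 (SE 0.17, unadjusted p = 0.15 by limma). RAB3D was at 8.98 and differed by 0.20 (SE 0.32), RAB26 at 6.35 and by -0.02 (SE 0.36). RAB3C, RAB37 and RAB44, which serve secretion in neurons or blood cells, were below the filter at 3.48, 3.34 and 3.22.

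RABs of lysosome-related organelles, cilia and the SOCS box group also showed no call. RAB38, which with RAB32 carries enzymes to melanosomes and related organelles, was at 10.17, 9.94 and 9.81 on the si-Control arrays and 9.28, 10.31 and 10.41 on the si-SMAD3 arrays. The knockdown arrays held both the lowest and the highest values, and the difference was 0.03 (SE 0.30). RAB32 was at 7.65 and RAB29, a binding partner of the kinase LRRK2, at 7.39, and their differences were -0.03 (SE 0.21) and -0.04 (SE 0.27). Of the ciliary RABs, RAB34, needed to begin a cilium inside the cell, was at 11.15, 10.95 and 11.45 against 11.24, 11.48 and 11.38, a difference of 0.18 (SE 0.20). RAB23, an inhibitor of hedgehog signalling, was at 9.00 and differed by 0.27 (SE 0.22). RAB28 was at 7.73, 7.79 and 8.68 against 7.83, 7.49 and 7.89 (difference -0.33, SE 0.28), and leaving out si-Control replicate 3 gave -0.02. The difference became -0.21 when si-SMAD3 replicate 2 was left out, and -0.50 when si-Control replicate 1 was. A further RAB28 probe set, at a mean of 6.70, differed by 0.19 and had its highest value, 7.73, in the array where the brighter probe set was lowest. The mean of both differed by -0.07. RAB40B and RAB40C join a RAB domain to a ubiquitin ligase adaptor. RAB40B was at 5.90, 5.50 and 5.47 against 5.69, 5.73 and 5.70, overlapping with a difference of 0.08 (SE 0.19), and RAB40C differed by 0.12 (SE 0.31).

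Among RABs of less settled function, RAB36 had the smallest p of any lower member that passed the filter. It was at 6.28, 6.39 and 6.78 on the si-Control arrays and 6.17, 6.09 and 6.23 on the si-SMAD3 arrays. The groups did not overlap, and the difference was -0.32 (SE 0.20, unadjusted p = 0.14 and adjusted p = 0.91 by limma). Without si-Control replicate 3, the highest array, it was -0.17. RAB42 was at 4.70, 4.90 and 4.40 against 4.62, 4.29 and 4.19 (difference -0.30, SE 0.21) with overlapping groups, and differed by -0.19 without si-Control replicate 2. RAB39A was at 5.01 (difference 0.03, SE 0.20) and RAB41 just above the filter at 3.98 (difference 0.11, SE 0.18).

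Across the family, 9 of 53 tested members (17.0%) had groups that did not overlap, 6 higher and 3 lower after knockdown. Over all genes tested the share was 11.0%, 5.74% higher and 5.28% lower. The higher members were RAB27B, RAB7B, RAB14, RAB3A, RAB43 and RAB5A, and the lower were RAB36, RAB33A and RAB3B. The sign of the difference was the same in all 3 experiments for 23 members (43.4%), 13 higher and 10 lower, against 27.9% of all genes. The median RAB difference was 0.09 in experiment 1, 0.12 in experiment 2 and -0.16 in experiment 3, and the median of all genes moved the same way, at 0.04, 0.07 and -0.08.

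From a level of 8 upward the range over the 6 arrays narrowed with level, for RAB genes as for all genes. The 10 members at or above 14 had a median range over the 6 arrays of 0.40, beside 0.50 for 901 genes of that level that stayed below the ceiling. For the 11 members from 10 to 14 the median range was 0.53 beside 0.68 for 3685 genes, and for the 11 from 8 to 10 it was 0.70 beside 0.81 for 3116 genes. The 21 tested members under 8 had a median range of 0.81, beside 0.80 for all genes tested under 8. The widest ranges were those of RAB7B (2.11), RAB6B (1.72), RAB26 (1.51) and RAB27B (1.36). In 3 of these 4, RAB27B apart, the highest value was in si-SMAD3 replicate 2, the array furthest out on the first principal component, and that array was the highest for 17 of the 53 tested members and for 22.5% of all genes. The si-Control replicate 3 array was the highest for 14 members and for 22.7% of all genes. What sets these arrays apart was not tested.

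The 8 members below the filter were RAB9B, RAB24, RAB19, RAB3C, RAB39B, RAB37, RAB44 and RAB40A, at means of 3.16 to 3.92. At the edge of the filter, RAB33A (3.97) and RAB41 (3.98) lay just inside it and RAB9B (3.92) and RAB24 (3.78) just outside. Tested without a filter, RAB39B had the smallest p of the family, with 3.75, 3.83 and 3.61 on the si-Control arrays against 3.34, 3.22 and 3.10 (difference -0.51, SE 0.16, unadjusted p = 0.012 and adjusted p = 0.86 by limma). RAB39B acts in neuronal traffic. All its values were near the floor, and a further RAB39B probe set at a mean of 3.40 differed by 0.05.

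The genes that run the RAB cycle were not called either. From 126 listed genes 115 had a probe set of their own and 104 entered the test, 48 above and 56 below 0 with a median of -0.01. By limma 0 passed the adjusted threshold, with 6 (5.77%) at an unadjusted p under 0.05, 2 higher and 4 lower, where all genes gave 5.72%. The smallest p among genes of prenylation and GDI belonged to CHML, an escort protein that presents RABs for prenylation, at 8.15 ± 0.38 in the control and 7.33 ± 0.21 with the knockdown (SD, n = 3). That is a difference of -0.82 (SE 0.24) with an adjusted p of 0.76 by limma, and its groups did not overlap. RABGGTB, the catalytic subunit of the transferase, differed by 0.74 (SE 0.34), with 0.20, 0.13 and 1.87 within the 3 experiments and 0.33 without si-Control replicate 3. Its partner RABGGTA differed by 0.38 (SE 0.25), or 0.61 without si-SMAD3 replicate 1, and the RAB chaperone RABIF by -0.30 (SE 0.19).

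Among 27 tested activators, DENND4A, an exchange factor for RAB10, differed by -0.48 (SE 0.21) and GAPVD1, which acts on RAB5, by 0.47 (SE 0.23), or 0.29 without si-Control replicate 2. RAB3IP, which activates RAB8, differed by -0.30 (SE 0.20), or -0.15 without si-Control replicate 2, and RABGEF1, an exchange factor for RAB5, by 0.25 (SE 0.18). Of 25 tested inactivators none had an unadjusted p under 0.05 by limma. TBC1D10A differed by 0.87 (SE 0.39) at a low mean of 4.41 on the si-Control arrays. Its groups overlapped, its differences within the 3 experiments were 0.83, 2.16 and -0.37, and leaving out either one of the replicate 2 arrays gave 0.55. TBC1D14 differed by -0.41 (SE 0.20), TBC1D5 by 0.38 (SE 0.18) and TBC1D1 by 0.42 (SE 0.23), the last by 0.25 when si-SMAD3 replicate 2 was left out and by 0.65 when replicate 3 was. Of 44 tested effectors, the RAB11 effector SH3TC2 differed by 1.01 (SE 0.31), from a mean of 4.0 near the filter to 5.01, with overlapping groups. The motor gene MYO5A, whose protein binds RAB10, RAB11 and RAB27A, was at 10.31 ± 0.31 against 9.62 ± 0.33 (SD, n = 3), a difference of -0.69 (SE 0.24). RBSN, a RAB4 and RAB5 effector, differed by 0.52 (SE 0.19) and the actin oxidase gene MICAL2 by -0.49 (SE 0.19). For these 4 effectors limma gave adjusted p of 0.80 to 0.86.

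Promoter sequence was compared as a feature that the choice of members did not use. RefSeq promoter windows of GRCh38.p14, 250 bases before to 50 after the start, matched 48 of the 61 members. The ratio of observed to expected CpG dinucleotides was at least 0.6 in 37 of them (77.1%), and in 49.0% of all 27305 windows. Of 27 RAB windows whose gene was at or above 8 on the array, 23 passed that ratio (85.2%), and of the 21 under 8, 14 did (66.7%). Over all measured genes with a window the same shares were 87.7% and 50%. Spearman's correlation between level and the CpG ratio was 0.23 over the 48 members and 0.46 over 16474 genes, given as a description since the points share arrays and base composition. A ratio under 0.4 was found in 6 of the 48 members (12.5%), RAB7B (0.19), RAB40A (0.27), RAB42 (0.28), RAB17 (0.31), RAB27B (0.31) and RAB25 (0.36). Among the 43 members tested with a window, 5 were under 0.4 (11.6%). Over all windows 41.0% were under 0.4, and over the 11252 genes tested with a window 17.0%. Over the 660 of those with an unadjusted p under 0.05 by limma it was 19.8%. RAB7B and RAB27B, the members with such a p, are among the 6, and a relation between the ratio and the difference was not tested.

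**Figure D4:**
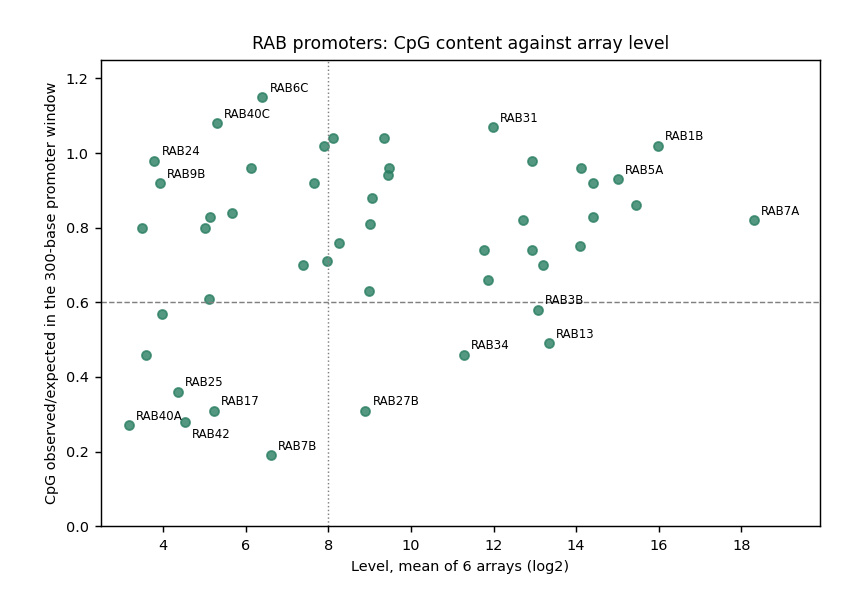
Observed over expected CpG in the RefSeq promoter window (vertical axis) against the 6-array mean log2 level (horizontal axis) for 48 RAB genes, with a dashed line at a ratio of 0.6 and a dotted line at a level of 8. Most bright members lie above the dashed line, and 6 members, RAB7B and RAB27B among them, lie under 0.4.

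CpG-rich and CpG-poor windows can be compared in the 120 bases before the start, shown for 2 bright endosomal RABs and for RAB27B and RAB7B, with each CpG in capitals and the strand of the gene read 5′ to 3′ (RefSeq, GRCh38.p14). The RAB7A stretch is chr3:128726063-128726182 on the plus strand with 16 CpG, RAB5A is chr3:19946977-19947096 on the plus strand with 13, RAB27B is chr18:54717737-54717856 on the plus strand with 4, and RAB7B is chr1:206003396-206003515 on the minus strand with 3. All 4 lie upstream of the annotated gene start.
RAB7A: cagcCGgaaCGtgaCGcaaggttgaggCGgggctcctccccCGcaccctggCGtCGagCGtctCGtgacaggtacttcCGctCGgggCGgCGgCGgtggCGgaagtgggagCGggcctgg
RAB5A: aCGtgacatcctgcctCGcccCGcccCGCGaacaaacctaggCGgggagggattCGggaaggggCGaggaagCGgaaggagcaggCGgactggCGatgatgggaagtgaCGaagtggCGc
RAB27B: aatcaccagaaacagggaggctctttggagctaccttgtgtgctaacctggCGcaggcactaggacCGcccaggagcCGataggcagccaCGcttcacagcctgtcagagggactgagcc
RAB7B: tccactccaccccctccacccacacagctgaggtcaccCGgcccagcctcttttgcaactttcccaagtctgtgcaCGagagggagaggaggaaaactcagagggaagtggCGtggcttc

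Letters of SMAD binding elements were searched in the same 300-base windows on both strands. The palindrome GTCTAGAC was in 0 of 48 RAB windows and in 0.201% of all windows. CAGACA, the SMAD box AGAC with flanking bases, was in 5 RAB windows (10.4%), those of RAB22A, RAB25, RAB27B, RAB3B and RAB7A, and in 16.8% of all windows. The GC-rich letters GGCGCC were in 14 RAB windows (29.2%) and in 19.0% of all. The E-box CACGTG, read by the lysosomal regulator TFEB among others, was in 6 RAB windows (12.5%), those of RAB21, RAB24, RAB29, RAB31, RAB4A and RAB5A, and in 7.43% of all. The CRE palindrome TGACGTCA was in 1 RAB window (2.08%; all 1.98%), TATAAA in 3 (6.25%; all 12%) and CCAAT in 12 (25.0%; all 35.7%). GTCTAGAC and CAGACA both hold the letters AGAC, with different bases before them. The median GC content was 65.0% in RAB windows and 58.3% in all windows. How far base composition sets the shares of these letters was not tested. A match describes the letters in the window and is no evidence of binding.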

How the data were processed

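Biotin-labelled cDNA of 6 TPC-1 RNA samples was hybridised to Affymetrix whole-transcript arrays. The deposited values are log2 signals, 1 per probe set and array, deposited by the authors. The submitters' processing notes name RMA and Affymetrix Expression Console. The software versions and the build were not given in the sources used here. RMA equalizes the arrays (medians 3.94 to 3.96). Whether a further transformation followed is not stated, so every fold is on the deposited scale. No depth applies; the number of arrays limits precision.

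Of 138745 probe sets, 36176 have 1 symbol, 1119 have several and 101450 are unlisted in the platform table. A gene took its brightest singly named probe set, and genes with a mean under 3.93, the median of all probe sets, were not tested. The groups were compared with limma 3.58.1 in R 4.3.3 (lmFit, eBayes, 2-sided, Benjamini-Hochberg over 20674 genes, threshold 0.05). The fit was first tested on simulated data with known changes. There it called 0.2% of log2 changes of 0.5, 22.2% of changes of 1, 77.8% of changes of 2 and 98% of changes of 4. Each simulated set held many true changes at once, which eases the adjusted threshold, and spreads were reassigned among genes at random. The reported fit called 1 gene, so these shares may overstate what it could call. A missing call therefore does not show that a gene was unchanged. Alternatives are given in the closing section. Array values are given for the 8 RAB genes of smallest p in each direction and the brightest of each step; array values of other RAB genes were chosen after they were seen. Each machinery list gives its 4 genes of smallest p. Members, steps and lists were chosen with earlier results of these data known.

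The series' design text gives 3 separate runs as the 3 replicates, and the numbers in the titles are taken to mark them. As a check, the departures of paired arrays from their own group mean were correlated across genes, giving 0.15, 0.22 and 0.05. Control and knockdown arrays of different number gave -0.18 to 0.06, so the pairing of the last rests on the labels.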

Additional observations from a re-analysis of the deposited data

How the results depend on the processing

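The counts of genes, RAB genes and machinery genes called, the counts of all genes and of RAB genes at an unadjusted p under 0.05, the count of RAB genes below 0, their median difference, the SMAD3 difference and those of the 16 RAB genes with the smallest p in their direction were recomputed under 15 alternatives: the replicate block, an intensity trend with robust variance, no filter, a filter at 6, quantile normalization, median centring, the mean of probe sets, updated symbols, leaving out each of the 6 arrays, and, chosen after seeing the data, leaving out the 15 genes that have 1 value on all arrays. RAB3A, RAB25, RAB33A and RAB42 lie under the filter at 6 and have no value there, and counts of groups that do not overlap, sign counts, step medians, ranges and promoter results were not recomputed. RAB genes called stayed at 0 of those tested in all of them, as did machinery genes, and the smallest adjusted p of any RAB gene was 0.68. The replicate block kept RAB genes changed at 0 and changed no other call. Its difference for SMAD3 was -4.06 and its adjusted p 0.0060. Over leaving out single arrays, the SMAD3 difference ran from -4.21 to -3.91 and the median RAB difference from -0.07 to 0.04.

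The count of genes called was 1 in the fit reported, 5 with the intensity trend and 3 with median centring, none of them a RAB gene. Genes at an unadjusted p under 0.05 numbered 1183, 1807 with no filter and 723 with the filter at 6, where more and fewer genes were tested. RAB genes at that p ranged from 0 to 2 when single arrays were left out: 0 without si-Control replicate 1, and 1 each without si-SMAD3 replicate 1 or replicate 3. These 16 RAB genes kept their sign under the alternatives that tested them, but several came near 0. The smallest differences were -0.02 for RAB28, 0.05 for RAB43, -0.10 for RAB15, -0.11 for RAB11A and -0.13 for RAB33A. Updated symbols added 1 member, RAB6D (difference -0.10, SE 0.39). The number of arrays limits the precision.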
